A study of Equus caballus with 34 samples.

Results

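Glucose breakdown and the response to low oxygen were followed through 37 genes in the dominant ovarian follicle of the mare. The genes encode glucose carriers, the enzymes that turn glucose into pyruvate and lactate, the kinases that hold pyruvate back from mitochondria, the oxygen sensors and the factors they control, and genes that those factors are known to drive. They were found on the array by gene name or by the protein name in a probe's description, and a probe was kept if its spot was well above local background on at least 5 of 34 arrays. All 37 genes had such a probe, with 81 probes kept of 81 found, out of 43603 probes and 12318 gene symbols in all. A further 8 probes described as similar to PGK1 and 1 as similar to HIF1A carry another gene's number and were set aside. The member genes were named by function, but with earlier results of these data known, so they are not a set chosen blind to the data. The values of a gene are those of its brightest probe on average over the 34 arrays.

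RNA came from 2 layers of the follicle, granulosa cells (GC) and the theca wall (TW), at 3 stages of a dominant follicle, early (ED), late (LD) and just before ovulation (PO, preovulatory). Every layer and stage had 5 arrays apart from TW LD, which had 9, and the labels name only the layer and the stage, with no breed, age or treatment. The design text calls the samples biological replicates, whether a GC and a TW sample share a follicle is not stated in the sources used, and theca wall is a tissue that also holds vessels and immune cells. Because each sample is a bulk extract, fewer cells of a type and less RNA per cell cannot be told apart.

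In glycolysis a cell imports glucose, traps it as a phosphate ester, commits it at phosphofructokinase, splits it and oxidises it to pyruvate, which either enters mitochondria or is reduced to lactate. When oxygen is scarce, prolyl hydroxylases of the EGLN family stop marking the hypoxia-inducible factors HIF1A and EPAS1 for destruction, and these factors then raise transcription of many glycolytic genes. The granulosa layer has no blood vessels of its own before ovulation, while the theca wall is vascularised.

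Levels are log2 of the background-subtracted signal minus the 75th percentile of that array, so 0 is the level of a probe at that percentile, and they are compared only within a probe. Changes are differences of group means in log2 units with the standard error (SE) of a limma fit over all probes, and a gene is said to have risen, fallen or differed where the Benjamini-Hochberg adjusted p was under 0.05. GC arrays lay on 5 slides with each stage once per slide, and TW ED, LD and PO arrays shared 5 other slides, with TW LD 2 and TW LD 8 on GC slides. This layout was read from the scanner files, while the design text places every group on every slide. At ED and PO the layer and the slide therefore cannot be told apart. The 4 arrays of slide 7 (TW ED 4, TW LD 6, TW LD 7 and TW PO 4) stood apart, with 1285 to 1718 spots flagged as outliers against 69 to 593 on the other 30 arrays. Flagged spots were left out, which removed PGAM1 on 4 arrays, PGK1 and P4HA1 on 3, GAPDH on 2 and HK1, GPI and ALDOA on 1 each.

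The labels were set against marker genes. All 9 measured granulosa markers were higher in GC at ED and LD, and 5 were at PO. Of 11 measured theca markers, all were higher in TW at ED and LD and 9 at PO. Theca wall samples were not free of granulosa markers. The summed level of these, on a linear scale where the 75th percentile is 1, was 83.5 on TW ED 5 and 47.7 on TW ED 3. It was 13.7 to 14.3 on the other TW ED arrays and 198 to 329 in GC ED. Nor were GC samples free of theca markers. Their sum was 68.9 on GC LD 1, 43.5 on GC LD 4, 42.8 on GC ED 4 and 34.8 on GC ED 1. It ran from 10.0 to 26.9 on the other GC arrays and from 136 to 227 in TW.

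The probes that carry the main contrasts are shown here so that a reader can see what hybridised. PFKFB3 and PFKFB4 are sister genes, of which PFKFB3 rose in both layers and PFKFB4 in GC, so the bases that differ where their probes can be laid side by side are in capitals. ENO2 had the largest change of the 37 genes, PFKM the fall in theca wall, and NDRG1 a theca wall rise that held under every setting tried. Sequences and positions are those of the deposited files, 5′ to 3′, on a horse genome build that the files do not name.

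PFKFB3: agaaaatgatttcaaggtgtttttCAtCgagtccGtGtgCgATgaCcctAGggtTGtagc

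PFKFB4: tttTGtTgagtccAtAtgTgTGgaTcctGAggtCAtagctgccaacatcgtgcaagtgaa

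ENO2: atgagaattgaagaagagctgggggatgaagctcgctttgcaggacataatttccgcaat

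PFKM: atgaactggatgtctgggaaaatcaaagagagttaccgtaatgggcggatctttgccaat

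NDRG1: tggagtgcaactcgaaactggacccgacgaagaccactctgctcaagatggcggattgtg

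The PFKFB3 probe lies at chr29:26615831-26616256 on the minus strand and the PFKFB4 probe at chr16:38446758-38447563 on the plus strand. Bases 22 to 60 of the first and 1 to 39 of the second align without gaps and match at 26 of 39 positions (66.7%). The ENO2 probe lies at chr6:34622270-34622638 (plus), the PFKM probe at chr6:65875804-65875944 (plus) and the NDRG1 probe at chr9:69080923-69083355 (minus). Each is 60 bases long but covers 141 to 2433 bases of genome, so none of them matches a single unbroken stretch of it. The longest run of bases that any of the 5 shares with a probe of another name is 15.

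The calls in granulosa cells all went upward, and all came in steps that end at the preovulatory stage. From ED to PO in GC, 17 of 37 genes rose and 0 fell (45.9% of the members called, where 44.9% of all 32577 probes tested were called, 23.5% higher and 21.4% lower). The share called was thus that of all probes, while the direction was not: the median change of the members was 0.96 against 0.09 over all probes. The groups did not overlap in 19 genes, all higher at PO, against 19.4% of probes. From LD to PO in GC, 6 genes rose and 0 fell, a share of 16.2% beside 16.9% of all probes (7.25% higher, 9.66% lower), with a median of 0.86 against 0.04. With median scaling the share of called probes that rose in this step went from 42.9% to 53.8%. PGAM1 was the gene whose LD and PO groups did not overlap in GC (2.92% of probes were free of overlap and higher, 3.51% lower). From ED to LD in GC no gene was called by limma, beside 0.00307% of all probes (the member median was 0.06). Unadjusted, 6 genes had a limma p under 0.05, but the share of all probes at that threshold was not counted.

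In theca wall the calls went in both directions. From ED to PO, 10 genes rose and 1 fell (29.7%, beside 26.9% of 35410 probes, 14.9% higher and 12% lower), with a median of 0.18 against 0.04. From LD to PO, 6 rose and 4 fell (27.0%, beside 16.8% of probes, 9.51% higher and 7.28% lower), with a median of 0.26 against 0.03. From ED to LD no gene was called by limma, beside 0.0537% of probes (0.0141% higher, 0.0395% lower). Unadjusted, 2 genes had a limma p under 0.05, again without a count over all probes. Scaling each array on its median in place of the 75th percentile lowered the median of all TW probes from 0.04 to −0.19 for ED to PO and turned the split of 10 rises and 1 fall into 7 and 8. For LD to PO it turned 6 and 4 into 5 and 8. Of all called probes, the share that rose then went from 55.3% to 32.5% for ED to PO and from 56.6% to 27.0% for LD to PO, and with quantile normalization to 40.9% and 41.0%.

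**Figure D1:**
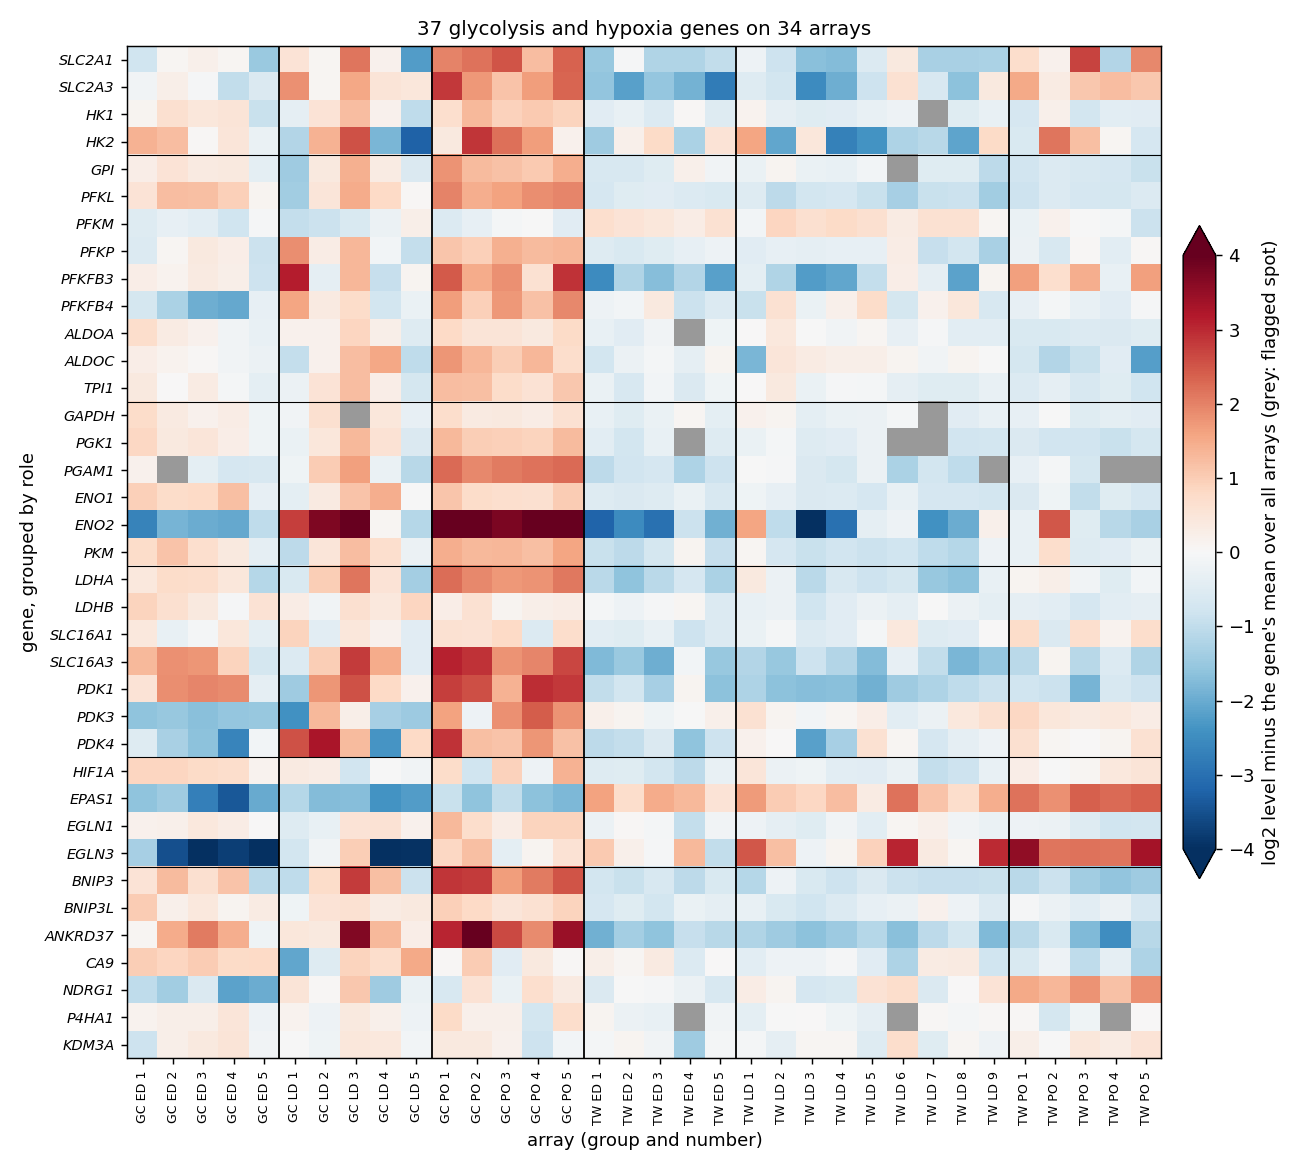
Level of each of the 37 genes (rows, grouped by role) on each of the 34 arrays (columns, by group), in log2 units minus the gene's mean over all arrays, from blue (lower) to red (higher). Grey cells are flagged spots. The GC PO columns and GC LD 3 are red for most enzymes, while EPAS1, EGLN3 and NDRG1 are highest in TW PO.

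Both glucose carriers rose from ED to PO in both layers, and neither hexokinase was called. SLC2A1, the widely expressed glucose carrier GLUT1, lay at −1.67, −0.80, −0.67, −0.78 and −2.35 on the GC ED arrays and at 1.13, 1.30, 1.64, 0.37 and 1.50 on the GC PO arrays. The PO arrays all lay above the ED arrays, and the rise was 5.44-fold (2.44 ± 0.61 SE, adjusted p = 0.00512, 5 and 5 arrays). In TW its level went from −2.40, −0.91, −2.08, −2.07 and −1.86 at ED to −0.15, −0.70, 1.85, −2.05 and 1.04 at PO. TW PO 4 stayed within the ED range while the other 4 PO arrays were above it, and the rise of 3.63-fold (1.86 ± 0.57 SE, adjusted p = 0.0215) was lost without TW PO 3 or TW PO 5 (adjusted p up to 0.0627) and with slide as a block (0.0522).

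SLC2A3, the high-affinity carrier GLUT3, rose in both layers without overlap. Its GC levels were −4.29, −3.93, −4.20, −5.14 and −4.71 at ED and −1.33, −2.41, −2.99, −2.46 and −1.81 at PO (4.76-fold, 2.25 ± 0.39 SE, adjusted p = 0.000564). In TW they were −5.73, −6.32, −5.70, −6.03 and −6.95 at ED and −2.64, −3.83, −3.08, −2.92 and −3.08 at PO (8.21-fold, 3.04 ± 0.48 SE, adjusted p = 0.000628). The order of the groups was the same on each slide, with within-slide changes of 1.21 to 2.96 in GC and 2.49 to 3.88 in TW. The TW ED spot was well above background on 4 of 5 arrays, so the size of that change is not exact. Under normexp background correction the rises were 0.99 in GC (adjusted p = 0.021) and 1.16 in TW (0.0461). From LD to PO in TW it rose 3.75-fold (1.91 ± 0.42 SE, adjusted p = 0.00943), which normexp reduced to 0.51 (adjusted p = 0.376).

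The hexokinases, which trap glucose as glucose 6-phosphate, were not called in any stage step. HK1, the constitutive form, lay at 1.21 to 2.76 in GC ED and at 2.76 to 3.40 in GC PO, so the groups met without overlapping (change 0.80 ± 0.39 SE, adjusted p = 0.107). HK2, the inducible form, scattered over −6.34 to −0.57 within the GC LD arrays alone. Its change from ED to PO was 0.88 ± 0.91 SE in GC and 0.66 ± 0.80 SE in TW.

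Among the enzymes from glucose 6-phosphate to the triose phosphates, 6 of 9 rose from ED to PO in GC, and 1 rose and 1 fell in TW. In this step 23.5% of all probes rose in GC, and in TW 14.9% rose and 12% fell. GPI, which makes fructose 6-phosphate, rose 2.15-fold in GC (1.10 ± 0.41 SE, adjusted p = 0.0413), from 3.47 to 4.42 to 4.91 to 5.64 with no overlap, and TPI1, which interconverts the trioses, rose 1.88-fold (0.91 ± 0.32 SE, adjusted p = 0.0303). ALDOC, a fructose bisphosphate aldolase, went from 1.24, 1.12, 1.01, 0.82 and 0.74 to 2.72, 2.29, 1.94, 2.30 and 1.68 in GC (1.20 ± 0.44 SE, adjusted p = 0.0378). In TW the same probe went from 0.25, 0.74, 0.89, 0.62 and 1.08 to 0.27, −0.21, 0.08, 0.52 and −1.24 (−0.83 ± 0.37 SE, adjusted p = 0.102). GC PO arrays were thus all above GC ED, and TW PO arrays ran lower than TW ED with an overlap at TW ED 1. The 3 GC rises were each lost without GC ED 5, among other arrays, and with quantile normalization, and that of GPI also with slide as a block (adjusted p = 0.0531).

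The phosphofructokinases, which commit glucose to glycolysis, differed in their calls. PFKP, the platelet form, rose 2.55-fold in GC from ED to PO (1.35 ± 0.44 SE, adjusted p = 0.0219), a call that ended without GC ED 5 (adjusted p = 0.0576), with quantile normalization (0.0593) and in the deposited values (0.0562). PFKL, the liver form, rose 2.81-fold from LD to PO (1.49 ± 0.42 SE, adjusted p = 0.0282), a call lost without any of GC PO 1, GC PO 3, GC PO 5 or GC LD 5. It stood at −0.62 to 0.50 in GC ED and at 0.72 to 1.26 in GC PO without overlap, short of the threshold for that step (0.96 ± 0.42 SE, adjusted p = 0.0744).

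PFKM, the muscle form, fell in TW. Its TW levels were 0.97, 0.84, 0.75, 0.59 and 0.92 at ED and 0.04, 0.49, 0.30, 0.22 and −0.55 at PO, so every PO array lay below every ED array (1.64-fold lower, −0.72 ± 0.20 SE, adjusted p = 0.0154). In GC it stayed within −0.50 to 0.27 at ED and −0.24 to 0.28 at PO. The TW fall was called under every alternative and left-out array, and the LD to PO fall (−0.70 ± 0.18 SE, adjusted p = 0.0166) was lost without TW PO 5 (adjusted p = 0.066), with slide as a block (0.0602) and under normexp (0.0515). The difference between the layers narrowed with it: GC lay below TW at ED (−0.93, not called with median scaling) and LD (−0.97), and at PO the difference was −0.08 ± 0.22 SE.

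PFKFB3 and PFKFB4 make fructose 2,6-bisphosphate, the strongest activator of phosphofructokinase. PFKFB4 rose in GC and not in TW. Its levels were −3.98, −4.55, −5.24, −5.33 and −3.63 at GC ED, −1.71, −2.92, −2.57, −4.03 and −3.55 at GC LD and −1.60, −2.35, −1.57, −2.13 and −1.37 at GC PO. All 5 PO arrays were above all ED arrays, for a rise of 6.69-fold (2.74 ± 0.43 SE, adjusted p = 0.000345) that ran from 2.21 to 3.67 within slides. In TW the levels were −3.49, −3.41, −2.91, −4.16 and −3.83 at ED and −3.62, −3.36, −3.58, −3.74 and −3.35 at PO, a change of 0.03 ± 0.30 SE. The difference between these steps was 2.71 ± 0.53 SE (adjusted p = 0.000442), and it kept its call under every alternative and left-out array. Under normexp the GC rise was 1.37 (adjusted p = 0.00485) and the difference between steps 1.37 (0.0331). GC lay below TW at ED (−0.99) and above it at PO (1.73 ± 0.37 SE, adjusted p = 0.000323). The ED call was lost with median scaling, with quantile normalization and without any of 6 ED arrays. Under normexp the ED difference was −0.07 (adjusted p = 0.877), and in the deposited values −0.26 (0.542).

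PFKFB3 was dim. Its spot was well above background on 3 of 5 GC ED, 3 of 5 GC LD and 5 of 5 GC PO arrays, and on 0 of 5 TW ED, 2 of 9 TW LD and 4 of 5 TW PO arrays. In TW it was at least 2.78-fold higher at PO than at ED (adjusted p = 0.0014), with every PO array (−5.02, −5.97, −5.21, −6.93 and −5.01) above every ED array (−9.16, −7.87, −8.35, −7.82 and −8.82). In GC the change was 1.82 ± 0.65 SE (adjusted p = 0.0323), with GC ED at −6.40, −6.52, −6.31, −6.42 and −7.47 and GC PO at −4.20, −5.18, −4.82, −6.04 and −3.76. Neither change held under normexp background correction: it was 0.06 in GC and 0.31 in TW, and neither was called. The "at least" fold sets the mean of the brighter group against, on each dim array, the higher of the probe's own signal and the lowest signal well above background.

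ALDOA, the main aldolase, did not rise in either layer. In TW it fell from LD to PO by 0.46 on the log2 scale (± 0.14 SE, adjusted p = 0.0327), with all PO arrays (4.37, 4.36, 4.43, 4.40 and 4.48) below the lowest LD array (range 4.53 to 5.40). That call was lost under normexp (adjusted p = 0.366), in the deposited values (0.389) and without any of 6 arrays. In GC the ALDOA spot was saturated on 1 of 5 LD and 4 of 5 PO arrays, which limits any rise that could be read there.

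**Figure D2:**
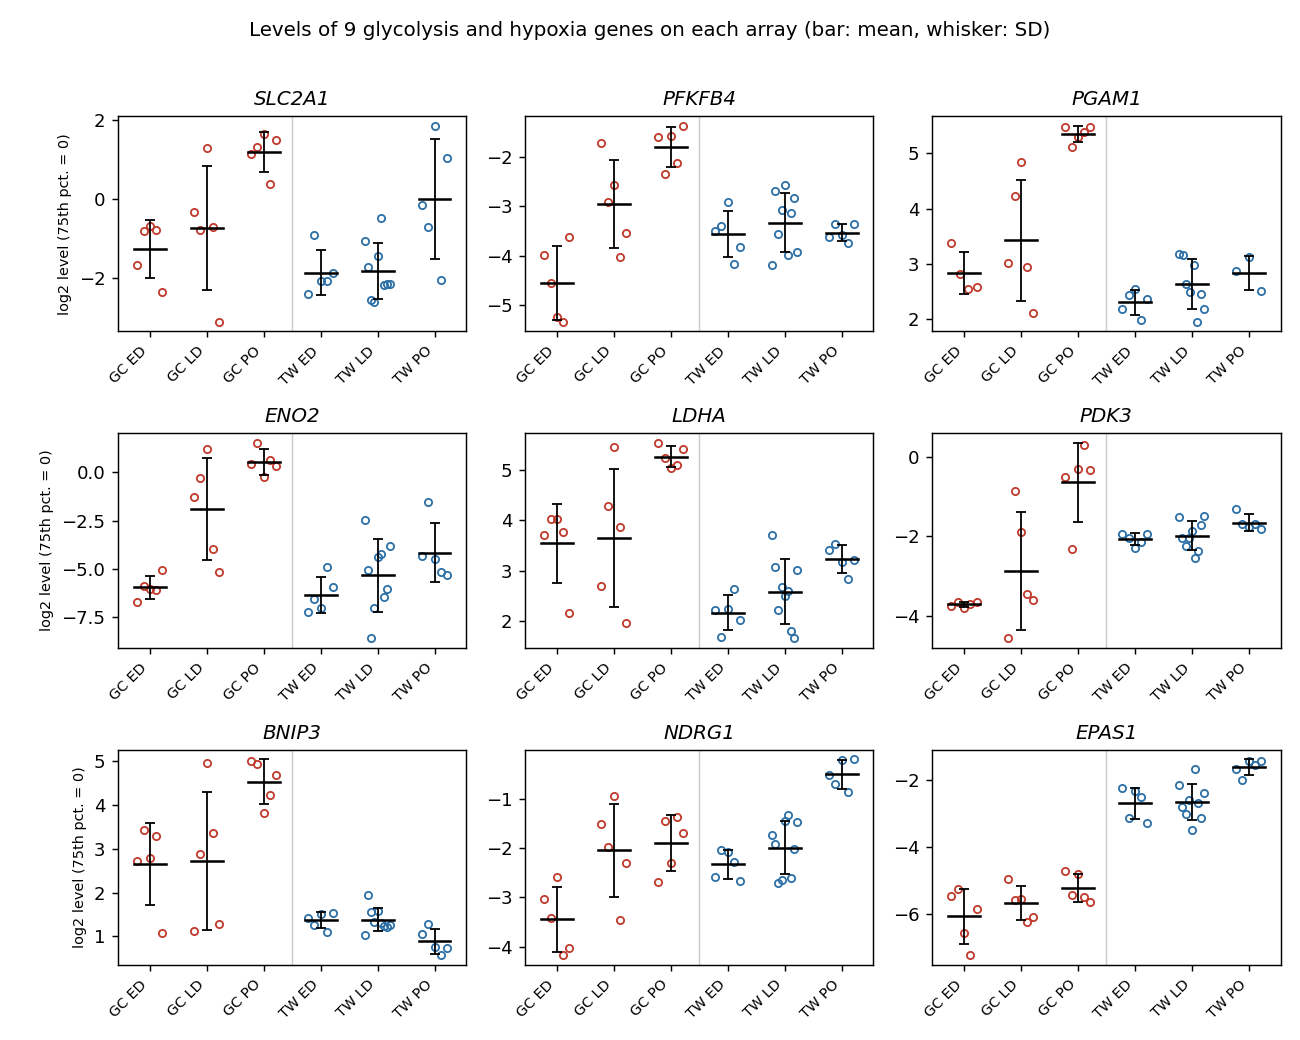
Log2 level (0 is the 75th percentile of the array) of 9 genes on each array, by group. Each circle is 1 array, the bar is the group mean and the whisker the SD. PFKFB4, PGAM1, ENO2 and PDK3 are higher in GC PO than in GC ED and were not called in TW, SLC2A1 and LDHA are higher at PO in both layers, NDRG1 is highest in TW PO, and EPAS1 is lower in GC at every stage.

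Of the 6 enzymes from glyceraldehyde phosphate to pyruvate, 2 rose from ED to PO in GC, where 23.5% of all probes rose. None was called in TW by its brightest probe, beside 26.9% of all probes called. ENO2, the gamma enolase known from neurons, lay at −6.71, −5.87, −6.01, −6.07 and −5.04 in GC ED, at −1.25, −0.28, 1.23, −3.95 and −5.15 in GC LD and at 0.44, 1.54, −0.26, 0.62 and 0.34 in GC PO. Every PO array was far above every ED array, while the LD arrays spanned nearly the whole distance. The change from ED to PO was 88.9-fold (6.47 ± 0.92 SE, adjusted p = 0.000237) and 5.37 to 7.41 within slides. The ED spot was well above background on 4 of 5 arrays, and normexp gave 3.53 (adjusted p = 0.00055), so the size is not exact although the call remained. In TW the levels were −7.22, −6.55, −6.99, −4.89 and −5.95 at ED, −8.58 to −2.45 (median −5.04) at LD and −4.31, −1.53, −4.50, −5.15 and −5.31 at PO (2.16 ± 0.94 SE, adjusted p = 0.0935). The groups overlapped there, and TW PO 2 stood far above the other PO arrays. The difference between the layers' steps was 4.31 ± 1.37 SE (adjusted p = 0.0177), which without the arrays of slide 7 was 3.71 (adjusted p = 0.0624).

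PGAM1, phosphoglycerate mutase, was the member whose GC PO arrays lay above every other array of the study on which it was measured. Its levels were 3.38, 2.82, 2.55 and 2.58 on the 4 GC ED arrays measured, 3.02, 4.24, 4.84, 2.94 and 2.11 at GC LD and 5.48, 5.12, 5.29, 5.38 and 5.47 at GC PO. The PO arrays lay within a narrow band. The rise was 5.71-fold from ED (2.51 ± 0.45 SE, adjusted p = 0.000735) and 3.78-fold from LD (1.92 ± 0.42 SE, adjusted p = 0.0118), and both calls held under every alternative and left-out array. All 5 PGAM1 probes gave a GC rise from ED of 2.38 to 2.60. In TW the change was 0.53 ± 0.28 SE (5 ED and 3 PO arrays, adjusted p = 0.163), and the difference between the layers' steps was 1.98 ± 0.54 SE (adjusted p = 0.00708).

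The other members of this stretch gave smaller values. PKM, which makes pyruvate, rose 2.22-fold from LD to PO in GC (1.15 ± 0.38 SE, adjusted p = 0.0484), a call lost without any of 13 of the 15 GC arrays, and from ED its groups of 1.20 to 2.72 and 2.77 to 3.15 did not overlap (adjusted p = 0.0728). PGK1, which makes the first ATP of the pathway, lay at 4.12 to 5.13 in GC ED and 5.21 to 5.61 in GC PO, also without overlap (0.72 ± 0.32 SE, adjusted p = 0.0751). The second probe of PGK1 rose in that step (0.99), and the second probe of PKM rose in TW from ED to PO (0.72). The 8 set-aside probes described as similar to PGK1 changed by 0.18 to 0.26 from ED to PO in GC, with 0 called. GAPDH and ENO1, often taken as reference genes, were at 0.19 ± 0.24 SE and 0.17 ± 0.36 SE from ED to PO in GC. Their spots were saturated on all 5 GC PO arrays, and ENO1 also on 2 of 5 GC ED arrays, so these changes have a ceiling. Of 13 GAPDH probes, 2 rose in that step, with changes of 0.11 to 0.97 over the 13.

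At the fork between lactate and mitochondria, 3 of 7 genes rose from ED to PO in each layer: LDHA and PDK4 in both, PDK3 in GC and SLC16A1 in TW. Of all probes, 23.5% rose in GC and 14.9% in TW. LDHA, which reduces pyruvate to lactate, lay at 3.72, 4.04, 4.03, 3.78 and 2.16 in GC ED and 5.54, 5.24, 5.04, 5.09 and 5.42 in GC PO (3.30-fold, 1.72 ± 0.54 SE, adjusted p = 0.0187). In TW it lay at 2.23, 1.69, 2.25, 2.64 and 2.04 at ED and 3.41, 3.54, 3.18, 2.83 and 3.22 at PO (2.10-fold, 1.07 ± 0.31 SE, adjusted p = 0.0171). PO was above ED on every array in both layers. GC ED 5 was the low ED array, and without it the GC call ended (adjusted p = 0.0514), as the TW call did with median scaling (0.84, adjusted p = 0.0516). LDHB, the form that favours the return to pyruvate, was at −0.19 ± 0.23 SE in GC and −0.30 ± 0.15 SE in TW, neither called. Of the lactate carriers, SLC16A1 (MCT1) rose 1.80-fold in TW (0.85 ± 0.24 SE, adjusted p = 0.0144), where TW PO 2 stayed within the ED range, and with median scaling it was not called (0.62, adjusted p = 0.0792). SLC16A3 (MCT4), the exporter of glycolytic cells, changed by 1.47 ± 0.62 SE in GC (adjusted p = 0.0662).

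The pyruvate dehydrogenase kinases switch off the enzyme that feeds pyruvate to mitochondria. PDK3 was tightly grouped at −3.74, −3.64, −3.80, −3.69 and −3.66 in GC ED and lay at −4.57, −0.85, −1.89, −3.46 and −3.60 in GC LD and −0.51, −2.33, −0.32, 0.30 and −0.33 in GC PO. All PO arrays were above the ED arrays, with GC PO 2 well below the others. The rise from ED was 8.40-fold (3.07 ± 0.61 SE, adjusted p = 0.00119) and its call held under every alternative and left-out array, at 1.99 under normexp. From LD it was 4.72-fold (2.24 ± 0.61 SE, adjusted p = 0.0242) and was lost without any of 6 arrays. In TW it went from −1.93, −2.04, −2.29, −2.14 and −1.93 to −1.30, −1.68, −1.78, −1.70 and −1.83, a shift of 0.41 ± 0.20 SE that did not pass the test although the groups did not overlap. The difference between the layers' steps from ED to PO was 2.66 ± 0.62 SE (adjusted p = 0.00206), and GC, below TW at ED (−1.64, not called under normexp), was at 1.02 ± 0.44 SE against TW at PO (adjusted p = 0.0529).

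PDK4 rose in both layers. In GC it went from −2.92, −3.69, −4.05, −5.05 and −2.52 at ED to 0.48, −1.19, −1.27, −0.62 and −1.22 at PO (7.35-fold, 2.88 ± 0.84 SE, adjusted p = 0.0122), with GC LD arrays from −4.77 to 0.85, and 1.87 under normexp. In TW it went from −3.46, −3.37, −2.97, −4.01 and −3.24 to −1.76, −2.32, −2.37, −2.28 and −1.80 (2.47-fold, 1.30 ± 0.39 SE, adjusted p = 0.0206). PO lay above ED on every array in both layers, and the TW call was lost without TW PO 1 (adjusted p = 0.0505), without slide 7 (0.0644) and under normexp (0.133). PDK1, a classical hypoxia target, changed by 1.33 ± 0.66 SE in GC and −0.07 ± 0.30 SE in TW from ED to PO, neither called.

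Of the 4 oxygen sensors and their factors, 3 rose in TW and 1 in GC from ED to PO, beside 14.9% and 23.5% of all probes. The GC count is near that share. EPAS1, the hypoxia-inducible factor prominent in vessels, lay at −2.24, −3.14, −2.35, −2.53 and −3.28 in TW ED and −1.68, −2.01, −1.45, −1.57 and −1.44 in TW PO (2.11-fold, 1.08 ± 0.29 SE, adjusted p = 0.0113). In GC it lay at −5.45, −5.26, −6.57, −7.22 and −5.84 at ED and −4.72, −5.44, −4.81, −5.48 and −5.65 at PO (0.85 ± 0.37 SE, adjusted p = 0.0773). TW PO was above all TW ED arrays, and every GC array was below every TW array. GC was lower than TW 10.3-fold at ED, 8.08-fold at LD and 12.0-fold at PO (adjusted p from 6.08e-10 to 2.82e-09), and these 3 calls held under every setting. Their sizes did not: under normexp they were −0.87, −1.25 and −1.81, and in the deposited values −1.79, −1.67 and −2.22. Under normexp the TW rise was 0.77 (adjusted p = 0.089).

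HIF1A, the other oxygen-regulated factor, rose 1.82-fold in TW from ED to PO (0.87 ± 0.22 SE, adjusted p = 0.00841), from 2.79 to 3.54 to 3.82 to 4.37 with no overlap. In GC it was at 4.71, 4.70, 4.60, 4.55 and 3.97 at ED and scattered over 4.57, 3.04, 4.76, 3.63 and 5.23 at PO (−0.26 ± 0.37 SE). Its 3 probes disagreed: only this one was called in TW, the GC change ran from −0.31 to 2.18 over the 3, and the mean of the probes gave a TW change of 0.66 (adjusted p = 0.0632). The difference between the layers' steps (−1.13 ± 0.42 SE, adjusted p = 0.0432) was −0.13 for that mean (adjusted p = 0.915).

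EGLN3, a prolyl hydroxylase that is itself induced by low oxygen, rose in both layers. In TW its levels were −2.47, −3.31, −3.57, −2.23 and −4.50 at ED and 0.03, −1.37, −1.34, −1.37 and −0.20 at PO, all PO arrays above all ED arrays (5.15-fold, 2.37 ± 0.64 SE, adjusted p = 0.0119, and 0.0561 with all 34 arrays in 1 fit). In GC they were −4.84, −7.02, −9.74, −7.29 and −8.60 at ED and −2.68, −2.32, −3.91, −3.41 and −2.93 at PO (4.45 ± 1.02 SE, adjusted p = 0.00304), but 1 of 5 ED and 3 of 5 LD spots were well above background, and normexp gave 0.87 (adjusted p = 0.0874). The second EGLN3 probe rose in both layers too (5.03 in GC, 2.76 in TW). EGLN1, the main hydroxylase at rest, changed by 0.59 ± 0.25 SE in GC and −0.23 ± 0.19 SE in TW, neither called.

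Of the 7 other hypoxia-driven genes, 3 rose in GC and 1 in TW from ED to PO, beside 23.5% and 14.9% of all probes. The TW count is near that share. NDRG1, a stress-response gene linked to differentiation, was the clearest riser of TW: its levels were −2.59, −2.03, −2.07, −2.28 and −2.66 at ED, −2.71 to −1.34 (median −1.92) at LD and −0.53, −0.71, −0.22, −0.87 and −0.20 at PO. The PO arrays lay above all earlier TW arrays. The rise was 3.54-fold from ED (1.82 ± 0.27 SE, adjusted p = 0.000487) and 2.80-fold from LD (1.48 ± 0.24 SE, adjusted p = 0.00447), and both held under every alternative and left-out array. In GC it rose 2.93-fold from ED (1.55 ± 0.45 SE, adjusted p = 0.0118), from −3.03, −3.41, −2.59, −4.17 and −4.03 to −2.68, −1.45, −2.30, −1.37 and −1.69, with an overlap at GC PO 1. Under normexp the GC rise was 0.71 (adjusted p = 0.0858).

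BNIP3, which tags mitochondria for removal, rose in GC and not in TW. GC levels were 2.71, 3.43, 2.78, 3.30 and 1.07 at ED and 5.01, 4.95, 3.82, 4.23 and 4.68 at PO, all PO arrays higher (3.67-fold, 1.88 ± 0.64 SE, adjusted p = 0.0281). TW levels were 1.42, 1.27, 1.51, 1.10 and 1.53 at ED and 1.06, 1.29, 0.75, 0.57 and 0.74 at PO (−0.48 ± 0.18 SE, adjusted p = 0.0504), where 4 of the PO arrays lay below the lowest ED array. The GC call was lost without GC ED 5, the low ED array, and with quantile normalization (adjusted p = 0.0631). The difference between the steps was 2.36 ± 0.65 SE from ED (adjusted p = 0.00724) and 2.31 ± 0.61 SE from LD (adjusted p = 0.00873), and these held under every setting. From LD to PO in TW it fell by 0.50 on the log2 scale (± 0.16 SE, adjusted p = 0.0368), a call lost without any of 8 arrays.

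ANKRD37, an ankyrin repeat gene known as a target of HIF1A, rose 4.05-fold in GC (2.02 ± 0.65 SE, adjusted p = 0.0204), from −1.91, −0.51, 0.10, −0.52 and −2.17 to 1.06, 1.98, 0.65, −0.10 and 1.48, where GC PO 4 lay just under the highest ED array. In TW it changed by −0.03 ± 0.30 SE. Its 5 probes gave GC rises of 2.02 to 2.12. The GC call was lost without GC ED 1 or GC ED 5 (adjusted p up to 0.0544). Not every known target took part: CA9, a carbonic anhydrase often used as a hypoxia marker, was at −0.67 ± 0.52 SE in GC and −0.72 ± 0.28 SE in TW. BNIP3L, also of mitophagy, was at 0.34 and 0.18, P4HA1, a collagen prolyl hydroxylase, at 0.05 and −0.06, and KDM3A, a histone demethylase, at −0.03 and 0.64. None of these 4 was called in a stage step, although the second KDM3A probe rose in TW from ED to PO (0.64).

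Set side by side, the layers shared 7 risers from ED to PO: SLC2A1, SLC2A3, PFKFB3, LDHA, PDK4, EGLN3 and NDRG1. In each of these the difference between the layers' steps was not called. Another 10 rose in GC and were not called in TW, 3 rose in TW and were not called in GC (SLC16A1, EPAS1 and HIF1A), PFKM fell in TW, and 16 were called in neither. For 9 of the 10 GC risers the test of the difference was itself passed: GPI, PFKFB4, ALDOC, TPI1, PGAM1, ENO2, PDK3, BNIP3 and ANKRD37. The exception was PFKP. The difference was passed by 13 genes in all (35.1%, beside 29.8% of 36453 probes, 14.7% higher and 15.1% lower in GC), 12 of them with the more positive step in GC, and the members' median was 0.82 against −0.07. In PO minus LD it was passed by 12 genes, all more positive in GC (32.4%, beside 19.8% of probes, 9.58% higher and 10.3% lower), with a median of 0.65 against −0.07. Median scaling moved the median of all probes to 0.20 and 0.24 for these differences and passed 16 genes in each, all more positive in GC, while the share of all passed probes that were more positive in GC went from 49.4% to 65.6% and from 48.3% to 71.7%.

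**Figure D3:**
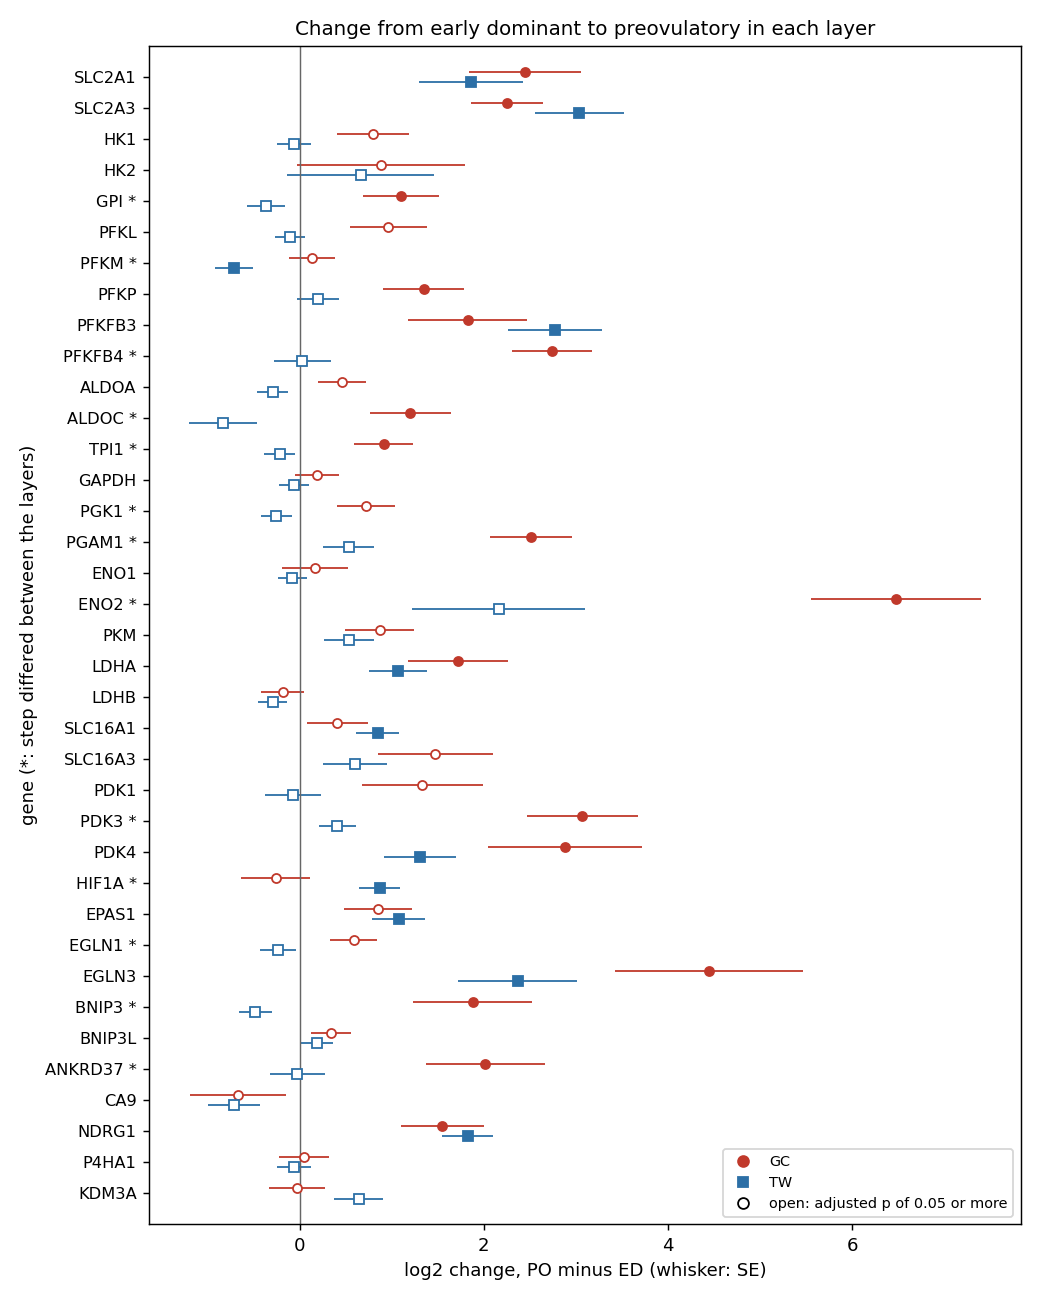
Log2 change from ED to PO of each gene (rows) in GC (red circles) and TW (blue squares), with the SE as whisker. Filled symbols passed an adjusted p of 0.05, and an asterisk marks genes whose step differed between the layers. ENO2 reaches 6.47 in GC and 2.16 in TW, PFKFB4 2.74 and 0.03, while the symbols of SLC2A1, SLC2A3 and NDRG1 lie near each other.

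Of those 13 differences, ALDOC, GPI, PFKFB4, PDK3, BNIP3 and PGAM1 kept the call under every alternative and left-out array. ALDOC differed by 2.03 ± 0.58 SE (adjusted p = 0.00947) and GPI by 1.47 ± 0.45 SE (adjusted p = 0.015). The calls of ENO2 and HIF1A were lost as given above, and those of the others under some setting as well: TPI1 (1.13) with quantile normalization, ANKRD37 (2.04) without slide 7 or any of 5 arrays, and PFKM (0.85), PGK1 (0.98) and EGLN1 (0.82) without any of 10 to 14 arrays. The 8 set-aside probes described as similar to PGK1 gave differences of 0.36 to 0.68 in PO minus ED, with 0 called, and of 0.55 to 0.94 in PO minus LD, with 7 called. In PO minus LD the differences that kept the call throughout were those of ALDOC, GPI, BNIP3 and EGLN1 (2.06, 1.66, 2.31 and 1.02).

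Granulosa cells of late dominant follicles were not alike. For the 17 genes that rose from ED to PO, each LD array was placed on a scale where 0 is the ED mean and 1 the PO mean of a gene. The median position over the genes was 1.07 for GC LD 3, 0.43 for GC LD 2, 0.38 for GC LD 1, 0.15 for GC LD 4 and −0.29 for GC LD 5. GC LD 3 thus stood at the PO level and GC LD 5 on the far side of the ED mean. GC ED 5, on the same slide as GC LD 5, was low too. As a mean over the 37 genes of the level minus each gene's mean over all arrays, it was at −0.60. GC LD 5 was at −0.55, the other GC ED arrays at −0.17 to 0.14, and GC PO 5, also of that slide, at 1.33. The part of the slide was not tested for these positions. The number of genes that rose from LD to PO was 20 without GC LD 3 and 1 without GC LD 5. Leaving out GC PO 3 or GC PO 5 also gave 1, and leaving out GC PO 1 or GC LD 4 gave 2. The gene called from LD to PO whichever array was left out was PGAM1. When all 34 arrays shared a fit, 16 genes rose in that step, where that fit called 28.3% of all probes. From ED to LD 4 rose, beside 6.35% of all probes called.

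GC LD 3 also had the highest leukocyte and smooth muscle marker sums of the GC LD arrays, 5.17 and 4.34, where the other 4 arrays ran from 0.361 to 2.29 and from 0.246 to 2.12. It had the lowest granulosa marker sum, 111 against 138 to 290. GC LD 1 and GC LD 4 had the highest theca marker sums of the GC LD arrays, 68.9 and 43.5 against 10.0 to 12.6. The part of these cell types in the result was not tested.

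In TW the 10 genes that rose from ED to PO put TW LD 6 at 0.79, TW LD 9 at 0.62 and TW LD 1 at 0.50, the other 6 arrays between −0.19 and 0.40. Those 3 arrays had the highest leukocyte sums among the 9 TW LD arrays, 20.8, 12.2 and 17.7 against 5.29 to 8.59. The part of leukocyte RNA in these positions was not tested.

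**Figure D4:**
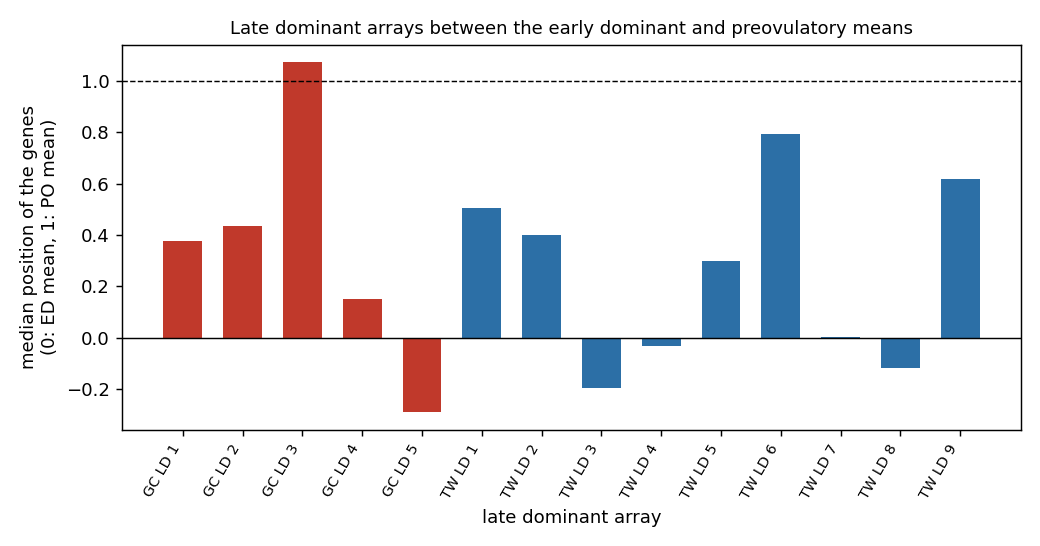
Median position of each late dominant array between the early dominant mean (0) and the preovulatory mean (1), over the 17 genes that rose in GC (red) and the 10 that rose in TW (blue). GC LD 3 stands at 1.07 and GC LD 5 at −0.29, while TW arrays run from −0.19 to 0.79.

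Some marker genes of other cells moved from ED to PO. In this step 23.5% of all probes rose and 21.4% fell in GC, and 14.9% and 12% in TW. The summed leukocyte level rose in TW from 3.36 to 8.14 at ED (median 3.56) to 11.5 to 38.6 at PO (median 21.4), and 10 of 11 markers were called higher. In GC it went from 0.226 to 0.549 (median 0.345) to 2.12 to 5.94 (median 2.66), with 6 of 11 higher and 1 lower. The endothelial sum in TW went from 3.34 to 7.29 to 6.56 to 11.0, with 5 of 10 higher, while in GC it stayed at or under 0.410 and 4 of 10 markers were below background on every ED and every PO array. Smooth muscle and pericyte markers in GC went from 0.243 to 0.393 to 1.36 to 2.80 (4 of 7 higher), and the granulosa sum fell from 198 to 329 to 104 to 147 (6 of 9 markers lower). Red blood cell markers had 1 of 5 higher in GC and 2 of 5 in TW. Theca markers had 1 higher and 2 lower in each layer, of 12 in GC and 11 in TW. In TW 2 of 9 smooth muscle and pericyte markers were higher, and 0 of 9 granulosa markers were called. The part of these cells in the changes of the member genes was not tested.

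At every stage more member genes were higher in granulosa cells than in theca wall than the reverse. At ED, 15 genes were higher in GC and 6 lower (56.8% called, beside 35.4% of 36453 probes, 14.4% higher and 21% lower). At LD, 17 were higher and 3 lower (54.1%, beside 32% of probes, 12.2% higher and 19.8% lower). At PO, 22 were higher and 3 lower (67.6%, beside 49.6% of probes, 21.4% higher and 28.2% lower). At LD the layers did not overlap in ANKRD37, higher in GC (2.83% of probes), and EPAS1, lower in GC (7.69%). At PO they did not overlap in 23 genes higher in GC and 3 lower, against 15.9% and 18.9% of probes. The members' median difference was 0.56, 0.52 and 1.31 at the 3 stages, against −0.06, −0.05 and −0.20 over all probes. Median scaling moved the median of all probes to 0.44, 0.41 and 0.57 and the splits to 25 and 3, 29 and 3, and 32 and 1, so directions here are best read relative to it. Of all called probes, 40.7%, 38.2% and 43.1% were higher in GC with the 75th percentile 71.1%, 72.5% and 74.1% with the median, and 54.5%, 54.9% and 56.4% with quantile normalization. The members' median lay above that of all probes by 0.62, 0.57 and 1.51 with the 75th percentile and with the median, and by 0.32, 0.48 and 1.11 with quantile normalization.

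**Figure D5:**
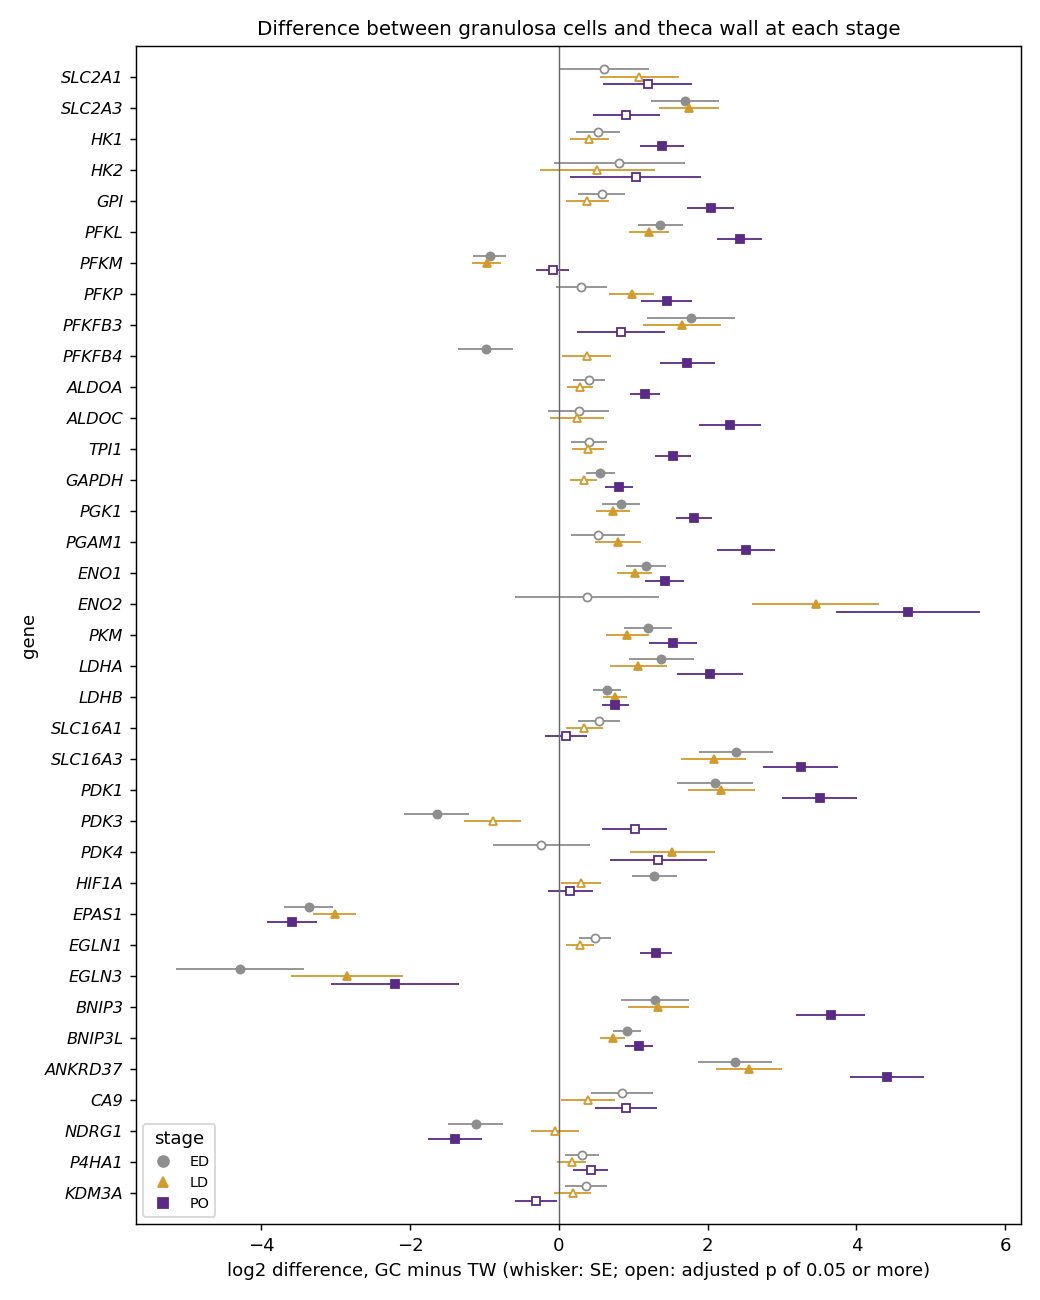
Log2 difference between GC and TW of each gene (rows) at ED (grey circles), LD (yellow triangles) and PO (purple squares), with the SE as whisker and filled symbols past an adjusted p of 0.05. ANKRD37, ENO2, BNIP3 and PDK1 lie farthest to the right at PO, and EPAS1 and EGLN3 lie on the left at every stage.

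At PO the largest excesses in GC were those of ENO2 (4.70 ± 0.97 SE, 25.9-fold), ANKRD37 (4.42 ± 0.50 SE, 21.3-fold), BNIP3 (3.65 ± 0.46 SE, 12.6-fold) and PDK1 (3.50 ± 0.51 SE, 11.3-fold), with adjusted p from 2.23e-08 to 0.000185. PDK1 lay at 1.90, 1.69, 0.50, 2.08 and 1.95 in GC PO and −1.68, −1.74, −2.76, −1.52 and −1.70 in TW PO, and SLC16A3 at 1.21, 1.01, −0.08, 0.06 and 0.79 and −2.97, −1.77, −2.99, −2.42 and −3.10. The layers did not overlap for either gene. PDK1 and SLC16A3, which no stage step called, were higher in GC at all 3 stages: PDK1 by 2.10, 2.19 and 3.50 and SLC16A3 by 2.38, 2.08 and 3.25, and each of these calls held under every setting.

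Along the pathway, GC exceeded TW at PO in GPI (2.04), PFKL (2.43), PFKP (1.45), ALDOA (1.16), ALDOC (2.30), TPI1 (1.54), GAPDH (0.81), PGK1 (1.82), PGAM1 (2.51), ENO1 (1.42), PKM (1.54) and LDHA (2.03). HK1 (1.38), LDHB (0.76), BNIP3L (1.08) and EGLN1 (1.31) were higher as well. LDHB was the only one of these 16 to lose the call under an alternative (0.19 with quantile normalization, 0.16 in the deposited values). The 8 set-aside probes described as similar to PGK1 were higher in GC at PO by 0.56 to 0.77, with 7 called. The carriers were not called at PO: SLC2A1 was at 1.19 ± 0.60 SE and SLC2A3 at 0.91 ± 0.45 SE, the latter higher in GC at ED (1.69) and LD (1.75).

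The genes lower in GC at PO were EPAS1, EGLN3 (−2.20 ± 0.86 SE, adjusted p = 0.0338) and NDRG1 (−1.39 ± 0.37 SE, adjusted p = 0.00226). With median scaling EGLN3 was at −1.42 and NDRG1 at −0.61 and neither was called, and EGLN3 was also lost without any of 4 arrays. Within slides 2 and 8, which held both layers at LD, ANKRD37 was higher in GC by 1.85 and 1.98 and EPAS1 lower by 2.14 and 3.11, while PFKL, PGK1, PKM, LDHA and BNIP3 were higher in GC on 1 of these slides and lower on the other.

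Other genes of the same chemistry were read from lists drawn up with earlier results known. Their changes were read in the main setting only. Whether the sizes hold under normexp, under other settings or with an array left out was not tested. Of 22 further isoenzymes and pyruvate-entry genes measured in GC, 9 rose and 2 fell from ED to PO, where 23.5% of all probes rose and 21.4% fell. The largest rises were those of SLC2A5, a fructose carrier (6.89 ± 1.47 SE), PDK2, another pyruvate dehydrogenase kinase (1.35 ± 0.44 SE), and MPC1 of the mitochondrial pyruvate carrier (1.30 ± 0.39 SE). SLC2A10 (−1.63) and ENO3, the muscle enolase (−0.998), fell. In TW, where 14.9% of all probes rose and 12% fell, 2 of 25 rose, HK3 (2.56), a hexokinase of white blood cells, and SLC16A7 (1.89), and 3 fell, PGAM2, the muscle mutase (−2.04), ENO3 (−1.01) and SLC2A10 (−0.60).

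From ED to PO within each layer, enzymes that run glucose chemistry backward or sideways gave no larger share of calls than all probes. Of 21 genes of glycogen, gluconeogenesis and the pentose phosphate path in GC, 4 rose and 4 fell, beside the same 23.5% and 21.4% of probes. FBP2 (−5.61 ± 1.22 SE) and FBP1 (−4.29 ± 0.61 SE, adjusted p = 0.000237), the fructose bisphosphatases that oppose phosphofructokinase, and GPD1 (−1.87) fell. PYGL, which breaks down glycogen (1.64), and PGLS of the pentose phosphate path (1.44) were among those that rose. In TW 2 of 23 rose and 2 fell, beside 14.9% and 12% of probes: the risers were PCK1 of gluconeogenesis (3.86 ± 0.99 SE) and GPD2 (1.60), and the fallers FBP2 (−2.87) and PYGB (−1.06).

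Of 28 further hypoxia targets, 12 rose and 3 fell in GC from ED to PO. The rises were led by LOX, a matrix crosslinker (6.50), MAFF, a transcription factor (5.36), and ADM, a vasodilator peptide (4.88). The falls were those of HMOX1 (−2.62), WSB1 (−1.73) and ZNF395 (−0.56). In TW 12 rose and 1 fell, led by MAFF (4.32), BHLHE40 (2.42) and RORA (2.41), against NDRG2 (−1.41). Of 7 further oxygen-sensing genes, 5 rose in GC, among them CITED2, which competes with the hypoxia factors for a coactivator (2.38), ARNT, their common partner (0.97), and EGLN2 (0.93). In TW 3 rose, ARNT (0.93), SIAH2 (0.87) and HIF1AN (0.52). The shares of all probes that rose and fell are those given above.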

How the data were processed

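The deposited scanner files hold spot intensity from Agilent Feature Extraction, version 9.5.3.1 per the file headers (9.1 per the submitters' processing notes), after the authors' background subtraction. A deposited log2 table by the authors differed by at most 0.0329 from quantile-normalized log2 mean signals and served as an alternative. RNA was copied from its poly(A) tail and labelled with Cy3, per the labels' protocols.

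Here log2 signal was scaled on each array's 75th percentile. Control and outlier-flagged spots were left out and spots of a probe averaged. Probes well above background on 5 arrays of a fit were tested with limma 3.58.1 in R 4.3.3, stage steps within a layer and layer differences over all 34 arrays, with Benjamini-Hochberg adjustment. Arrays had 64.3% to 82.5% of spots well above background and 54 to 375 saturated spots, and their number limits the precision. In data simulated for GC from ED to PO (31587 probes, of which 31387 were unchanged), 62% of changes of 2 log2 units were called. So were 8% of changes of 1 and 0.0223% of unchanged probes. In the measured data 44.9% of probes were called in that step, so the adjusted threshold differs and these shares do not give its power there. Probes were named from gene numbers, symbols and protein descriptions, with 9 probes described as similar to PGK1 or HIF1A set aside. Each gene is given by its brightest probe, and non-member genes are named up to 3 per list and direction by size of change, apart from 1 gene that is not reported here. The members and lists were chosen with earlier results of these data known. Alternatives were normexp, quantile or median scaling, the deposited values, other filters, probe means, slide as a block, all arrays in 1 fit, no slide 7 and each array left out.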

Additional observations from a re-analysis of the deposited data

Results flagged for a closer look

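The change from ED to PO differed between GC and TW, by the test of the difference itself, for 13 member genes. In log2 units it was more positive in GC for ENO2 by 4.31, PFKFB4 by 2.71, PDK3 by 2.66, BNIP3 by 2.36, ANKRD37 by 2.04, ALDOC by 2.03, PGAM1 by 1.98, GPI by 1.47, TPI1 by 1.13, PGK1 by 0.98, PFKM by 0.85 and EGLN1 by 0.82. For HIF1A the difference was −1.13, on 1 of its 3 probes. The 8 set-aside probes described as similar to PGK1 gave 0.36 to 0.68, with 0 called.

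The change from LD to PO was likewise more positive in GC for BNIP3 by 2.31, ALDOC by 2.06, PDK3 by 1.91, ANKRD37 by 1.86, PGAM1 by 1.72, GPI by 1.66, PFKL by 1.21, TPI1 by 1.14, PGK1 by 1.09, EGLN1 by 1.02, PFKM by 0.89 and ALDOA by 0.88. Here the 8 set-aside probes described as similar to PGK1 gave 0.55 to 0.94, with 7 called.

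A single array stood far from the rest of its group in 15 of 221 tests, where chance gives about 1 in 20. GC ED 5 was low for PFKFB3 (level −7.47), LDHA (2.16) and HIF1A (3.97). In TW PO, array 2 was at −1.53 for ENO2 and 2.27 for PKM, array 3 at 3.24 for LDHB and −2.76 for PDK1, and array 1 at −1.30 for PDK3. In TW ED, array 4 was at −2.01 for SLC16A3 and −1.94 for KDM3A. In TW LD, array 1 was at 2.24 for HK1 and −0.84 for ALDOC, and array 6 at 0.21 for KDM3A. In GC PO, array 4 was at 3.04 for SLC16A1 and array 3 at 0.50 for PDK1. TW ED 4 and TW LD 6 are arrays of slide 7.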

How the results depend on the processing

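Of the stage-step calls, 7 genes from ED to PO in GC (ENO2, PDK3, PDK4, PFKFB4, PGAM1, SLC2A1 and SLC2A3), 3 in TW (NDRG1, PFKM and SLC2A3) and 22 layer differences at PO were called under every alternative setting and without any single array. From LD to PO in GC, called genes numbered 11 with median scaling (beside 18.1% of all probes called) and 3 in the deposited values (13.9%). They numbered 3 without a filter on dim probes (10.2%) and 16 with all 34 arrays in 1 fit (28.3%). From ED to LD that fit called 4 (6.35%). In TW from LD to PO, normexp left 3 (2 higher, 1 lower), a fixed slide block 4 and the single fit 6 (5 higher, 1 lower). These settings called 5.51%, 6.67% and 7.89% of all probes. The layers differed at LD in 32 genes with median scaling, beside 48.2% of all probes. PFKFB3 from LD to PO in TW changed sign under normexp (−0.17, adjusted p = 0.77), and the cause was not tested. Leaving out an array gave 0 to 2 genes from ED to LD, 1 to 20 from LD to PO and 9 to 21 from ED to PO in GC, and 0 to 0, 4 to 12 and 10 to 15 in TW. It gave 18 to 22, 14 to 23 and 24 to 27 layer differences at ED, LD and PO, and 8 to 17 and 9 to 15 differences of the PO minus LD and PO minus ED step.

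In GC from ED to PO the count was 9 without GC ED 5, and from ED to LD it was 2 without GC LD 5. From LD to PO it was 3 without GC ED 1, GC ED 2, GC ED 3, GC ED 4, GC PO 2 or GC PO 4. In TW from LD to PO it was 6 without TW PO 1, TW LD 3 or TW LD 5, 5 without TW PO 3 and 4 without TW PO 5. Without the LD arrays, an alternative chosen after seeing the data, GC had 24 genes higher at PO than at ED (beside 48.6% of probes called) and TW 9 higher and 2 lower (30.1%). The labels give no replicate numbers, and the numbers used here follow accession order. Within GC, and between ED and PO in TW, equal numbers happen to mark arrays of the same slide, so the fit with slide as a fixed block compares stages within slides. It called 18 genes from ED to PO and 5 from LD to PO in GC (all higher) and 11 from ED to PO in TW (9 higher, 2 lower). Dim spots (PFKFB3, EGLN3, ENO2 in ED) limit the sizes of low levels, and saturated ones (GAPDH, ENO1, ALDOA) those of high levels.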
